A study of Mus musculus with 53 samples.

Results

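The cerebellum of wild-type mice was compared with the brainstem, cortex and striatum of the same mice, to describe which genes set the cerebellar transcriptome apart in an aged brain. The comparison took in all 30 wild-type libraries of the 53 libraries sequenced, as the labels give genotype and tissue. It set the 7 cerebellum libraries against the 23 libraries of the other regions, with brainstem (8 libraries), cortex (7) and striatum (8) weighted equally and the mouse as a block. The series was made to find genes changed by mutant ataxin-3, and its other 23 libraries came from MJD84.2 mice, a model of spinocerebellar ataxia type 3 (SCA3) whose transgene is the complete human ATXN3 gene, expanded in its CAG repeat and driven by its own promoter.

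The wild-type animals were 8 untreated wildtype male C57BL/6 mice aged naturally to 17.5 months (75 or 77 weeks on the labels), and 7 of them gave a cerebellum. All had been through repeated beam walking and rotarod tests at younger ages. The SCA3 mice, used here only for a check of the same contrast, were 6 hemizygous males, also labelled C57BL/6, and aged 74 to 77 weeks. About 30 mg of tissue was used for each RNA isolation, so a library holds the mixed cell types of a piece of tissue and no sorted cell type.

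The cerebellar cortex is dominated by granule cells, very small and densely packed glutamatergic neurons whose parallel fibres synapse on Purkinje cells. Purkinje cells are large GABAergic neurons and the only output of the cerebellar cortex, and they are the cells most often lost in inherited ataxias. Bergmann glia, a specialised astrocyte, wrap the Purkinje cell synapses, while interneurons of the molecular and granular layers inhibit both neuron types. The other 3 regions hold cell types that the cerebellum lacks, among them the spiny projection neurons of the striatum and the pyramidal neurons of the cortex.

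Library totals ran from 31.7 to 76.7 M counts over the 30 libraries and from 34.6 to 69.4 M in cerebellum. The RNA integrity number (RIN, a score of RNA degradation) was 7.84 ± 0.299 in cerebellum (SD, n = 7) and differed from the mean of the same mouse's other libraries by 0.31 (exact two-sided sign-flip test over mice, p = 0.0625). The library total differed by -3.35 M counts (p = 0.531 by the same exact test), and the smallest p that 7 mice allow is 0.0156. The gene table held 12372 genes. Every one of them had a geometric mean of at least 4.02 CPM (a gene's counts relative to the total of its library, here with an offset of 0.5) over all 53 libraries, so a gene confined to a single region tends to fall below the threshold. Gabra6, Pcp2, Ppp1r17, Fat2 and the Hox genes are examples of such markers, and they were not analysed here. The counts below therefore describe genes detected in more than 1 region.

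The label was checked against the defining markers that could be measured. Of 8 markers taken to define cerebellum, the 5 in the table (Cbln3, Zic1, En2, Car8 and Calb1) were higher in every cerebellum library than in any of the other 23 libraries. The check is one-sided for genes such as Cbln3 and En2, which are in the table because of their cerebellar level, and some genes of the longer granule and Purkinje cell lists below were lower or not called. Drd1, the dopamine receptor of direct pathway striatal neurons, was at 0.332 to 1.1 CPM in cerebellum against 68.8 to 342 CPM in striatum, and Drd2 was at 0.443 to 6.96 CPM against 49.2 to 233 CPM.

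Markers of neighbouring tissue differed between libraries of the same region, and the part of dissection in this was not tested. Slc17a6, the vesicular glutamate transporter of deep nuclear and brainstem neurons, was at 124.7, 119.9, 110.9 and 80.5 CPM in the cerebella of mice 7267055, 9082857, 9083372 and 9083373, and at 21.7, 19.9 and 16.5 CPM in those of mice 7267059, 9083371 and 9083375. Ttr, the transthyretin gene that marks choroid plexus, ran from 1.73 to 1999 CPM in cerebellum. In the brainstem of mouse 9083373, Cbln3 was at 38.1 CPM while the other 7 brainstem libraries had 1.99 to 5.91 CPM. Tcf7l2, a transcription factor of the thalamus, was at 120.6 and 157.5 CPM in brainstem libraries of mice 7267055 and 9083373, and at 104.7, 118.9 and 33.0 CPM in the striatum of mice 7267058, 7267059 and 9083373. It was at 4.97 to 16.2 CPM in the remaining brainstem and striatum libraries. Counts were therefore also run without each of these sets of libraries.

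Most of the transcriptome differed between cerebellum and the other regions. By the likelihood ratio test of edgeR at a false discovery rate (FDR) below 0.05, 4354 genes (35.2% of those tested) were higher in cerebellum than in the mean of the other regions and 4687 (37.9%) were lower. Most differences were small, with a median absolute log2 fold change of 0.312 over all genes. By at least 2-fold, 620 genes were higher (5.01%) and 1113 lower (9.0%). A gene high in cerebellum alone is more easily lost to the threshold on the mean over all regions than a gene low in cerebellum alone, so these counts do not compare gains with losses. Without the 4 cerebella that held more Slc17a6, these counts were 739 and 1384.

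A difference from the mean of 3 regions can come from a single one of them, so each region was also tested alone. Cerebellum was higher than brainstem for 4326 genes (35.0%) and lower for 4622 (37.4%). It was higher than cortex for 4148 (33.5%) and lower for 4314 (34.9%), and higher than striatum for 4257 (34.4%) and lower for 4287 (34.7%). The median absolute log2 fold change was 0.356 against brainstem, 0.335 against cortex and 0.323 against striatum, so by this median the 3 regions lay at similar distances from cerebellum. Several gene lists below differed far more by region. In all, 2582 genes (20.9%) were higher in cerebellum than in each other region and 2503 (20.2%) were lower. The remaining 3956 of the 9041 called genes (43.8%) did not differ the same way from all 3, and 204 of the 9041 (2.26%) differed in the opposite direction from at least 1 region.

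The split between higher and lower genes depended on scaling. Genes higher than each region made up 50.8% of such calls with trimmed mean of M-values (TMM) scaling and 60.8% with library totals alone. Ranges of single libraries gave a stricter view. For 1386 genes (11.2%) all 7 cerebella were above all 23 other libraries, and for 1162 genes (9.39%) all 7 were below.

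The genes that stood farthest above the nearest other region were taken as the 10 with the largest smallest fold change over the 3 region pairs. They were Cbln3, Car8, Arhgef33, Neurod1, Il16, Ptpn22, Atp2a3, Svep1, Neb and Gprc5c. All 10 were above their own mouse's other libraries in 7 of 7 mice, and none of their cerebellum values overlapped with the other regions.

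**Figure D1:**
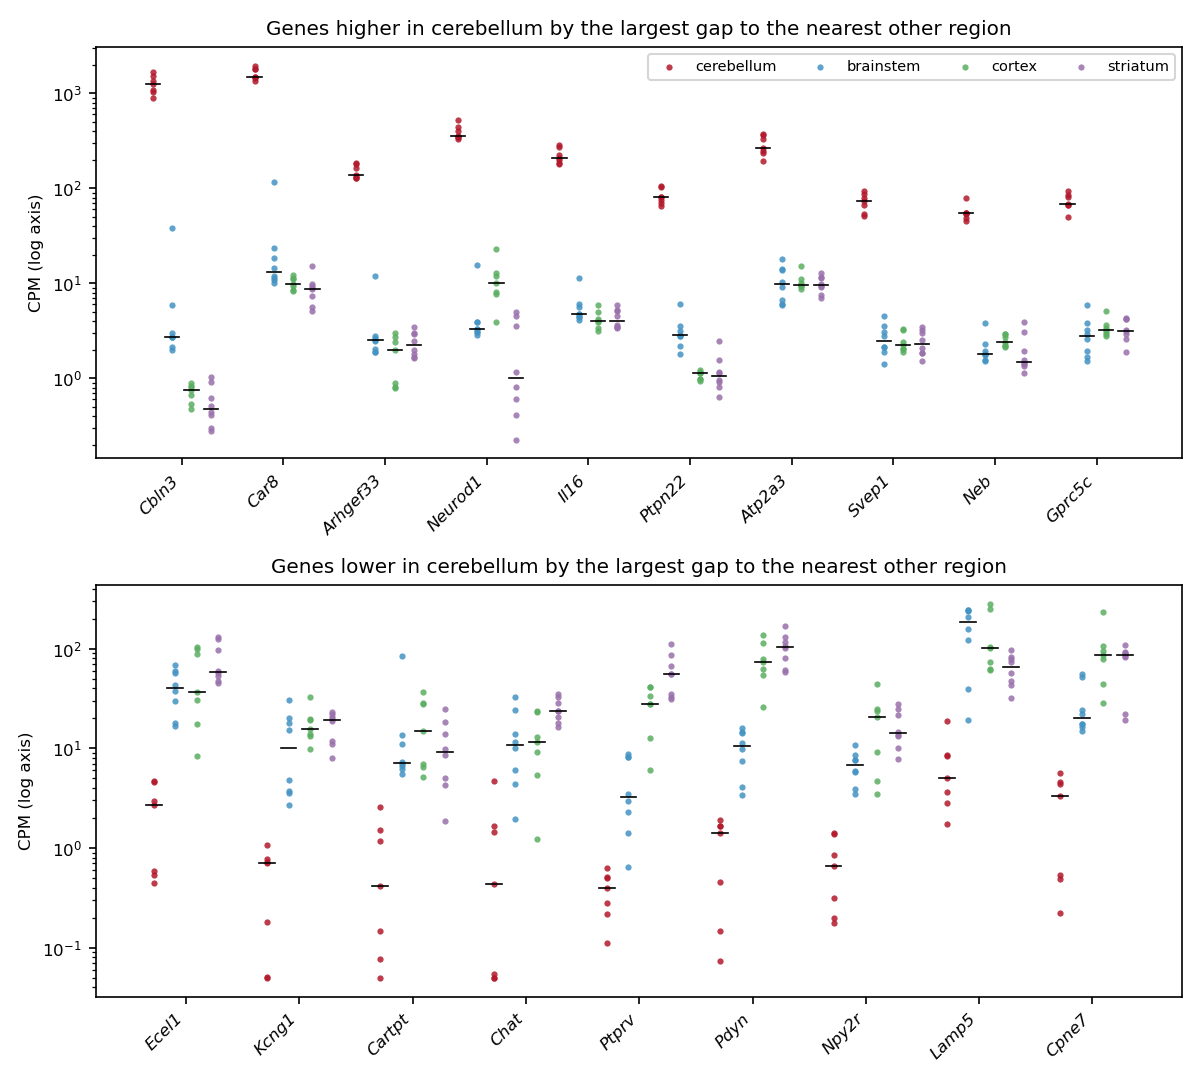
CPM (log axis) of genes with the largest gaps above (top) and below (bottom) the other regions, with 1 point for each of the 30 wild-type libraries, coloured by region, and a bar at each region's median. Values under 0.05 CPM are drawn at 0.05. Every cerebellum point lies above the other regions in the top panel, while Cartpt and Chat overlap in the bottom panel.

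Cbln3 (GRCm38 chromosome 14, 55878920 to 55884256), a granule cell member of the cerebellin family that is secreted together with Cbln1, was at 890.0 to 1672 CPM (median 1265) in cerebellum, 1.99 to 38.1 CPM in brainstem, 0.475 to 0.885 CPM in cortex and 0.278 to 1.03 CPM in striatum (log2 fold change 10.08, SE 0.34, FDR 1.1e-154). Its level in cerebellum was among the highest of the granule cell genes, whereas cortex and striatum stayed near or under 1 CPM. Car8 (chromosome 4, 8141493 to 8239041), a catalytically inactive carbonic anhydrase that binds the inositol trisphosphate receptor in Purkinje cells, was at 1366 to 1957 CPM (median 1481) in cerebellum and at 9.98 to 116 CPM in brainstem, 8.32 to 12.4 in cortex and 5.15 to 15.1 in striatum (log2 fold change 7.13, SE 0.28, FDR 1.1e-135). For both genes the highest brainstem value came from mouse 9083373, and without that library the log2 fold changes were 10.2 and 7.26.

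Neurod1 (chromosome 2, 79452637 to 79456636), a basic helix-loop-helix (bHLH) transcription factor needed for granule cell survival, was at 334 to 526 CPM (median 360.2) in cerebellum. It was at 3.9 to 23 CPM in cortex and at most 15.8 and 5.06 CPM in brainstem and striatum (log2 fold change 6.66, SE 0.39, FDR 2.6e-65). Arhgef33 (chromosome 17, 80306923 to 80433497), a putative guanine nucleotide exchange factor, was at 127 to 184 CPM (median 138) in cerebellum and did not exceed 12.1 CPM elsewhere (log2 fold change 5.97, SE 0.26, FDR 2.2e-116). Il16 (chromosome 7, 83642819 to 83746028), which encodes a cytokine precursor with a longer neuronal form in cerebellar granule cells, was at 183 to 285 CPM (median 211) in cerebellum and 4.08 to 11.5, 3.17 to 5.88 and 3.37 to 5.99 CPM in brainstem, cortex and striatum (log2 fold change 5.53, SE 0.15). Its level hardly differed among the other 3 regions.

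Ptpn22 (chromosome 3, 103856575 to 103912252), a tyrosine phosphatase best known from lymphocytes, was at 65.4 to 106 CPM (median 81) in cerebellum and no higher than 6.03 CPM elsewhere (log2 fold change 5.73, SE 0.16, FDR 1.3e-302). Atp2a3 (chromosome 11, 72961169 to 72993043), the SERCA3 calcium pump of the endoplasmic reticulum, was at 196 to 371 CPM (median 264) in cerebellum and 5.88 to 18.2, 8.63 to 15.2 and 7 to 12.9 CPM in the other regions (log2 fold change 4.80, SE 0.17, FDR 1.6e-197). The remaining 3 were Svep1, an extracellular matrix and adhesion protein (4.81), Neb, the giant actin-binding protein nebulin of skeletal muscle (4.76), and Gprc5c, an orphan G protein-coupled receptor (4.49), on the log2 scale with SE of 0.16 to 0.18. Reads were counted without strand, and exons of Il16 and Svep1 share 1202 and 2244 bases with Stard5 and Gm26889 on the opposite strand, so reads of these pairs cannot be told apart there.

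Promoter sequences are shown for 3 of these genes, to place the letters of motifs linked to granule and Purkinje cell factors beside the values. The 250 bases before the RefSeq start (GRCm38.p6) were searched on both strands for CAGATG and CAGCTG, E-box letters bound by bHLH factors such as Neurod1, and for AGGTCA, the core of nuclear receptor sites such as those of Rora. CAGCTG reads the same on both strands, and no matches of different motifs overlapped in the stretches shown. Of the 10 genes, 7 had an entry, with 10 promoters in all. CAGATG was in 2 of the 10, both of them promoters of Il16, CAGCTG in 0 and AGGTCA in 2, 1 of Arhgef33 and 1 of Il16, while over 12279 promoters of genes in the table the shares were 9.95%, 12.1% and 10.3%. The stretches below overlap no exon of GENCODE vM21, and capitals mark the motif letters.
Il16, chr7:83735540-83735789, minus strand: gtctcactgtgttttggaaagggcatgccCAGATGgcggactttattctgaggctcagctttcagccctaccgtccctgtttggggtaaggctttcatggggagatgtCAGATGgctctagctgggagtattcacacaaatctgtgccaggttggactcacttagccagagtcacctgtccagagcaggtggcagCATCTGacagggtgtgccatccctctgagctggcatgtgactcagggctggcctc
Arhgef33, chr17:80307157-80307406, plus strand: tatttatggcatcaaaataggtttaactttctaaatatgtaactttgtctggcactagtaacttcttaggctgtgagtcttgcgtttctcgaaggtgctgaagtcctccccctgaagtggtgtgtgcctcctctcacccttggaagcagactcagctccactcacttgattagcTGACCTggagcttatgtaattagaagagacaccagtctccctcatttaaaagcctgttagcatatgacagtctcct
Atp2a3, chr11:72960919-72961168, plus strand: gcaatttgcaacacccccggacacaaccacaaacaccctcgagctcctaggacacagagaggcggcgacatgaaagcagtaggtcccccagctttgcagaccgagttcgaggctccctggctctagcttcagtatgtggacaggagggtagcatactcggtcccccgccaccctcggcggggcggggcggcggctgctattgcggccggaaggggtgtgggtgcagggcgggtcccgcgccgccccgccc
The Il16 stretch held CAGATG 3 times, starting 221, 142 and 55 bases before the RefSeq start, the last of them on the reverse strand. The Arhgef33 stretch held AGGTCA once on the reverse strand, 76 bases before the start, and the Atp2a3 stretch held none of the 3 motifs.

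Most measured granule cell genes were higher in cerebellum. Of 28 listed genes 25 were measured, 22 were higher and 1 was lower in cerebellum, and 19 were higher than each other region. Over all genes 35.2% were higher, 37.9% lower, 20.9% higher than each region and 20.2% lower than each, and the counts of all gene lists are to be read beside these shares. Marker genes that are low outside cerebellum reached the gene table through their cerebellar level, so these counts give no share of all listed genes, and the median is not ranked against other lists. The median log2 fold change was 2.89, against -0.0154 over all genes. The summed level of the 25 genes was 6979 to 10754 CPM in cerebellum and 1062 to 1547, 1909 to 3325 and 1651 to 2451 CPM in brainstem, cortex and striatum. Cbln1, the secreted organiser of parallel fibre synapses, was at 519 to 922 CPM (median 650.4) in cerebellum (log2 fold change 5.48, SE 0.37, FDR 2.4e-50). The zinc finger transcription factors Zic1 and Zic2, which are kept on in mature granule cells, were at 650.5 ± 119.6 and 249 ± 47 CPM (SD, n = 7) and rose by 3.64 and 3.53 on the log2 scale. Pax6, a transcription factor of the rhombic lip lineage, was at 85.5 to 113 CPM (median 93.8) and showed almost the same low level in the other regions, with means of 11.3, 10.7 and 11.2 CPM in brainstem, cortex and striatum (log2 fold change 3.11, SE 0.13, FDR 4.1e-158).

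Some synaptic genes of the same list were also higher. Grm4, the presynaptic glutamate receptor of parallel fibres, had a log2 fold change of 2.89, and Grin2c, the NMDA receptor subunit of mature granule cells, of 3.02. Cadps2, a regulator of dense-core vesicle release, was at 250.2 to 384 CPM in cerebellum (2.50). Others were not. Slc17a7, the vesicular glutamate transporter of granule cells and of cortical pyramidal neurons, was at 283 to 497 CPM (median 324) in cerebellum but at 357 to 1629 CPM (median 1208) in cortex, and its difference from the mean of the 3 regions did not pass the test (log2 fold change 0.88, FDR 0.052), although it did without mouse 9083373 (0.988) or mouse 9083375 (1.04). Sez6, a synaptic membrane protein, was the lower gene of the list, at 106 to 131 CPM against means of 291 CPM in cortex and 417 CPM in striatum (log2 fold change -0.88, SE 0.15, FDR 1.7e-07). In brainstem it was at 62.9 to 117 CPM, and cerebellum was higher than brainstem (log2 fold change 0.40, FDR 0.042).

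Most measured Purkinje cell genes were also higher, although Purkinje cells are few. Of 30 listed genes 24 were measured, 21 were higher and 2 lower (35.2% and 37.9% of all genes), 15 were higher than each other region (20.9% of all genes), and the median log2 fold change was 1.88. Itpr1, the inositol trisphosphate receptor of the endoplasmic reticulum, was the most abundant of the list by CPM, at 2922 to 5345 CPM (median 3628) in cerebellum and at means of 195, 811 and 1016 CPM in brainstem, cortex and striatum (log2 fold change 2.93, SE 0.24, FDR 2.6e-36). Homer3, a scaffold that links metabotropic glutamate receptors to Itpr1, was at 152 to 234 CPM (median 167) in cerebellum and at means of 10.8, 6.08 and 7.43 CPM in brainstem, cortex and striatum (log2 fold change 4.52, SE 0.10), and its exons share 874 of 3440 bases with Ddx49. Slc1a6, the glutamate transporter of Purkinje cell spines, rose by 3.75, Gng13, a G protein gamma subunit, by 3.59, and Calb1, the calcium buffer calbindin, by 2.61 on the log2 scale. Icmt, which methylates prenylated proteins and is broadly expressed, was on the list and rose by 2.52 (SE 0.07), with 491 to 709 CPM in cerebellum and means of 93 to 104 CPM elsewhere.

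Not every Purkinje cell gene followed. Pcp4, a calmodulin regulator that striatal neurons also make, was at 439 to 616 CPM (median 531) in cerebellum and 410.0 to 902 CPM (median 579.5) in striatum, and its log2 fold change was 0.57 (FDR 0.002), which no longer passed the test without the 4 cerebella with more Slc17a6 (0.64). Foxp2 and Bcl11a, transcription factors shared with forebrain neurons, fell by 1.24 and 1.57 on the log2 scale. Aldoc, the zebrin II antigen that is also an astrocyte enzyme, was at 1653 ± 198 CPM in cerebellum and 1534 ± 256 CPM in brainstem and was called against the mean of the regions (log2 fold change 0.79) but not against brainstem.

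Of 13 measured Bergmann glia genes 7 were higher and 3 lower (median 0.551), beside 35.2% and 37.9% of all genes. The lower genes were Fgfr3 and Sox2, a growth factor receptor and a transcription factor that other astrocytes share, and Npy2r, a neuropeptide Y receptor that neurons also make. Gdf10, a secreted factor of the transforming growth factor family that is a marker of these cells, was at 91.6 to 165 CPM (median 108) in cerebellum and at means of 3.25, 7.35 and 7.73 CPM elsewhere (log2 fold change 4.36, SE 0.18, FDR 6.7e-146). Hopx, a homeodomain protein, and Timp4, a metalloproteinase inhibitor, rose by 1.89 and 1.93. The glutamate transporters of glia moved in opposite directions. Slc1a3, which dominates in Bergmann glia, was at 1034 to 1492 CPM (median 1149.8) in cerebellum and at means of 275, 669 and 660.5 CPM elsewhere (log2 fold change 1.32, SE 0.12, FDR 5.4e-32). Slc1a2, which dominates in forebrain astrocytes, was at 724 to 1113 CPM (median 899) in cerebellum and at 2438, 3134 and 3221 CPM (log2 fold change -1.62, SE 0.10, FDR 4.9e-45). All 7 cerebella were above all other libraries for Slc1a3 and below all of them for Slc1a2.

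Genes of cerebellar interneurons and unipolar brush cells were called about as often as all genes, with 5 of 13 measured genes higher and 4 lower (median 0.274), beside 35.2% and 37.9% of all genes. The median was 0.589 against brainstem, -0.0584 against cortex and 0.0709 against striatum. Against the mean of the regions it was 0.487 without the 4 cerebella with more Slc17a6, and 0.169 with the other 23 libraries as 1 group. Those higher than each other region were Tfap2b, a transcription factor of molecular layer interneurons (5.48), Pvalb, the calcium buffer parvalbumin that Purkinje cells share (3.39), and Kit, a receptor tyrosine kinase of interneurons (2.34). The enzymes of GABA synthesis differed from each other, with Gad1 at 597 ± 61.9 CPM in cerebellum and not called (0.27, FDR 0.083, but called at 0.346 without mouse 7267055) and Gad2 at 196 ± 18.2 CPM and lower than each other region (-1.16, FDR 2.6e-08).

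**Figure D2:**
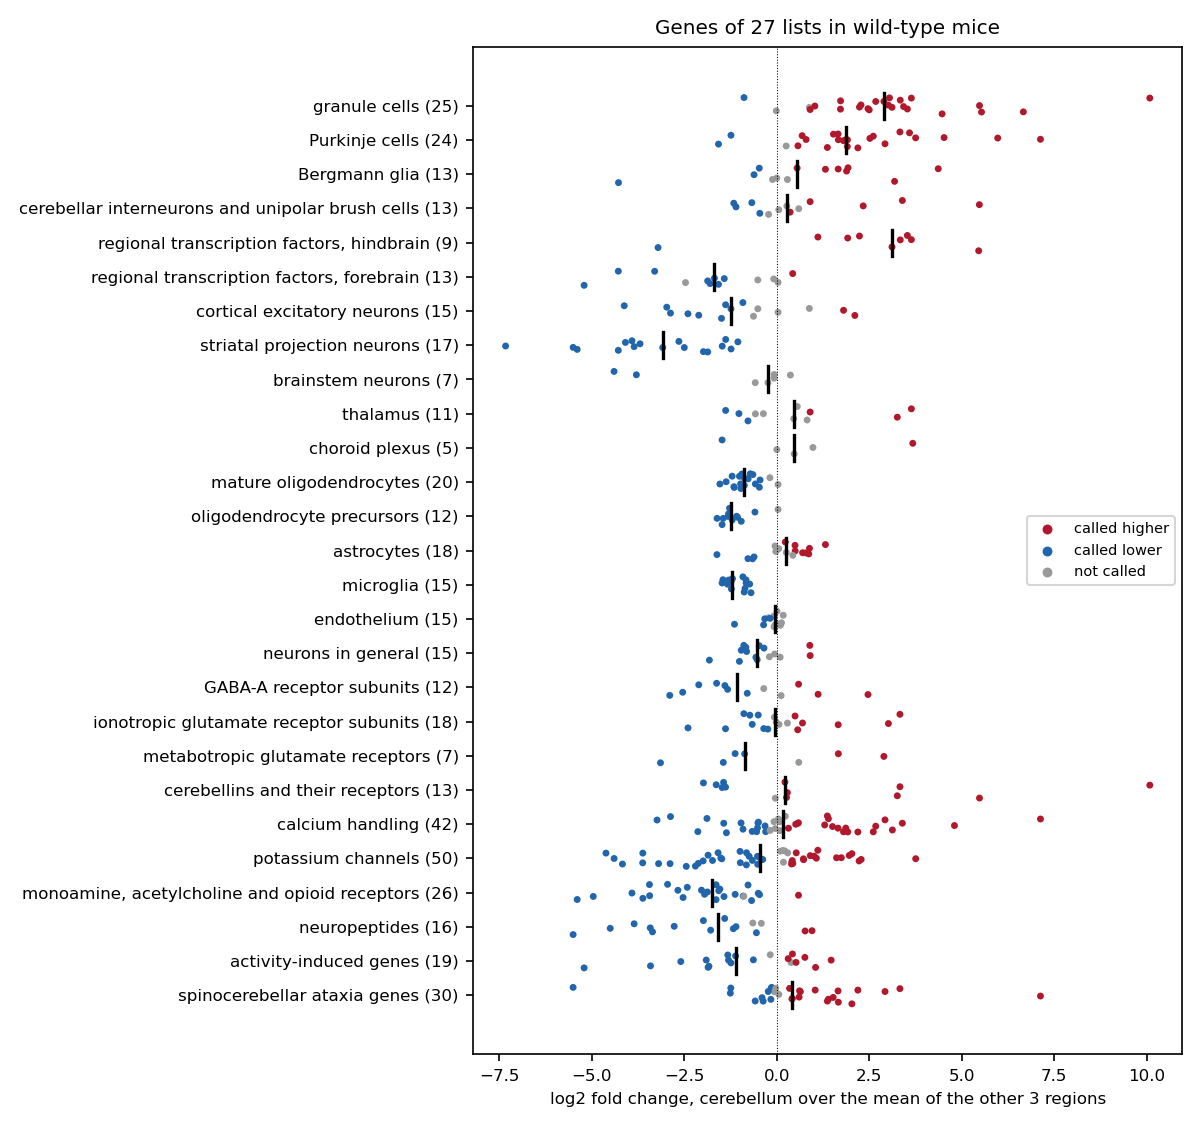
Log2 fold change of cerebellum over the mean of the other 3 regions for the measured genes of 27 lists (number in parentheses), coloured by call at FDR below 0.05, with a black bar at each list's median. Hindbrain transcription factors (median 3.11) and granule cell genes (2.89) lie farthest to the right, and striatal projection neuron genes (-3.08) farthest to the left. Genes of cerebellar lists that are low elsewhere are in the table through their cerebellar level, so the order of the lists is no result.

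Transcription factors that carry positional identity are given mainly by single genes. Of 39 listed hindbrain factors only 9 were measured, 5 of them also granule cell genes of the list above, and a factor low elsewhere is in the table because of its cerebellar level, so no count over the 9 is given. En2, the engrailed factor of the midbrain and hindbrain boundary, was at 98 to 180.2 CPM (median 135) in cerebellum, 9.6 CPM on average in brainstem and 1.2 and 2.57 CPM in cortex and striatum (log2 fold change 5.46, SE 0.29, FDR 5.3e-85). Meis1 and Meis2, paralogous homeodomain cofactors, went in opposite directions. Meis1 was at 54.7 to 67.8 CPM and higher than each region (1.92), while Meis2 was at 3.64 to 32.4 CPM against means of 93.2, 159.8 and 313 CPM in brainstem, cortex and striatum (log2 fold change -3.21, SE 0.28, FDR 1.2e-18). Of 13 measured forebrain factors 8 were lower and 1 higher (median -1.68), beside 37.9% and 35.2% of all genes. The median was -2.38 against cortex and -2.1 against striatum but -0.459 against brainstem, where 5 were lower and 2 higher. Bcl11b, a factor of deep-layer cortical and striatal neurons, was at 0.96 to 8.96 CPM (median 4.25) in cerebellum and at means of 146 and 265 CPM in cortex and striatum (log2 fold change -4.28, SE 0.30, FDR 1.5e-25). The higher gene was Cux1 (0.43, SE 0.08).

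Receptors for glutamate included genes higher and genes lower in cerebellum. Among 18 ionotropic subunits 6 were higher and 8 lower, near the 35.2% and 37.9% of all genes, with a median of -0.0391. This median had no stable sign, being 0.0333 under library totals, 0.0154 without mouse 9083373, 0.141 without the cerebella with more Slc17a6 and 0.0328 without those with most Ttr. Grid1, which binds cerebellins, was at 21.2 to 30.4 CPM (median 25.4) in cerebellum and at means of 51.8, 73.3 and 79.1 CPM elsewhere (log2 fold change -1.38, SE 0.07, FDR 6.9e-66). Of the AMPA receptor subunits, Gria4 was higher than each region (457 to 596 CPM, log2 fold change 1.66) and Gria3 was lower (-0.50).

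Of the NMDA receptor subunits, the obligatory Grin1 was not called (-0.06, FDR 0.58), Grin2c was at 451 to 859.9 CPM (median 523) against means of 45.5 to 88.9 CPM elsewhere, and Grin2b was at 3.05 to 14.1 CPM (median 11.4) against 107 CPM in cortex (log2 fold change -2.40, SE 0.34, FDR 5.2e-09). Per kilobase of exon, cerebellum had 115 CPM of Grin2c, 27.6 of Grin1 and 0.406 of Grin2b, whereas cortex had 17.0, 34.4 and 4.32. This scale is only rough across genes, since reads were counted on RefSeq genes and lengths are of all GENCODE vM21 exons joined. Of 7 metabotropic receptors 2 were higher, Grm4 among them, and 4 lower, beside 35.2% and 37.9% of all genes. Grm5, which couples to phospholipase C, was at 7.9 to 60.1 CPM (median 35) against means of 143, 282 and 427 CPM in brainstem, cortex and striatum (log2 fold change -3.14, SE 0.25, FDR 5.1e-24). The 4 cerebella with more Slc17a6 had the 4 highest values of Grm5.

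**Figure D3:**
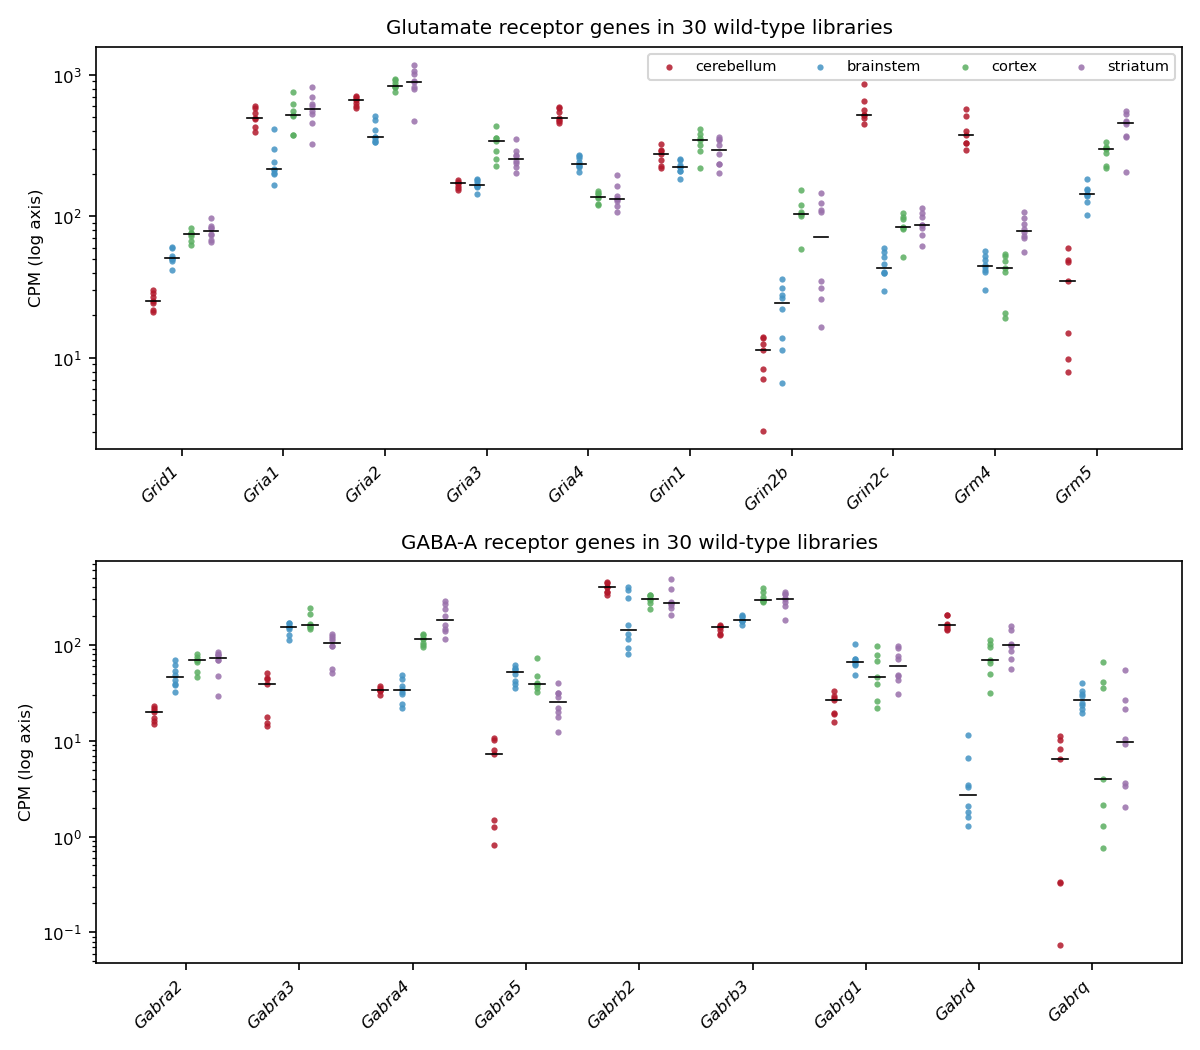
CPM (log axis) of glutamate receptor genes (top) and GABA-A receptor genes (bottom) in the 30 wild-type libraries, with 1 point per library coloured by region and a bar at each region's median. The median of cerebellum is the highest for Gria4, Grin2c, Grm4, Gabrb2 and Gabrd, and the lowest for Grid1, Grin2b, Grm5, Gabra2, Gabra3 and Gabra5, among others.

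The cerebellin system, in which secreted cerebellins bridge presynaptic neurexins and postsynaptic receptors, had members in both directions. Of 13 measured genes 7 were higher and 5 lower (median 0.222), beside 35.2% higher and 37.9% lower over all genes. The median was 0.158 in mice with all 4 regions and 0.426 without the 4 cerebella with more Slc17a6. Against cortex alone 4 were higher and 6 lower (median -0.0829). Cbln1, Cbln3 and Grid2ip, which encodes the postsynaptic scaffold delphilin (3.26), were higher than each region. Cbln2 and Cbln4, cerebellins of other brain regions, were lower (-1.64 and -1.98), Cbln2 not past the test without the cerebella of mice 9083371 and 9083373 (-1.15).

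GABA-A receptor subunits were mostly lower, with 7 of 12 measured subunits lower, 3 higher (37.9% and 35.2% of all genes) and a median of -1.06. Against brainstem 6 were lower and 3 higher, with a median of -0.287. Of the alpha subunits, which set the receptor's class, Gabra2, Gabra3, Gabra4 and Gabra5 fell by 1.62, 2.11, 1.40 and 2.89 on the log2 scale. Gabrd, the delta subunit of tonic, extrasynaptic receptors, was at 145 to 205 CPM (median 163) in cerebellum, 3.94 CPM on average in brainstem, 75.2 CPM in cortex and 102 CPM in striatum (log2 fold change 2.47, SE 0.30, FDR 1.3e-17). On the same rough scale per kilobase of exon, cerebellum had 61.6 CPM of Gabrb2 and 59.0 CPM of Gabrd. Gabra6, the alpha subunit of granule cells that pairs with Gabrd, is among the genes not analysed here.

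Of 42 measured calcium signalling genes 20 were higher and 15 lower (median 0.16), beside 35.2% and 37.9% of all genes. This median was 0.106 in mice with all 4 regions and 0.419 without the 4 cerebella with more Slc17a6. Against brainstem 27 were higher and 13 lower (median 0.562), whereas against cortex 16 were higher and 18 lower (median -0.0287). Higher than each other region were 15 of the 42, beside 20.9% of all genes. In the route to release from internal stores, phospholipase C makes inositol trisphosphate, which opens Itpr1. Plcb4, the phospholipase of Purkinje cells, was at 266 to 360.2 CPM (median 306) (log2 fold change 1.80, SE 0.26, FDR 4.7e-13). Plcb1, the forebrain phospholipase, was lower (-1.36). Itpr3, a receptor isoform usually linked to secretory epithelia, was at 86.8 to 150.4 CPM (median 96.5) in cerebellum and at means of 17.7, 9.4 and 10.4 CPM elsewhere (log2 fold change 3.13, SE 0.11, FDR 1.7e-219), while Itpr2 was slightly lower (-0.30). The ryanodine receptors also differed among themselves, with Ryr1 higher (1.86), Ryr2 higher by less (0.57) and Ryr3 lower (-1.43).

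Calcium pumps and channels gave further pairs of this kind. Atp2b3, a plasma membrane pump, was higher (1.30) and Atp2b1 and Atp2b4 lower (-0.96 and -1.89). Cacna1a, the P/Q-type channel of Purkinje cells, was at 559 to 895 CPM (median 689) (log2 fold change 1.66, SE 0.11, FDR 1.1e-60). Of the T-type channels, Cacna1g was higher (1.40) and Cacna1h was at 3.69 to 19.1 CPM (median 10.7) and below all other libraries (-3.23). Camk4, a nuclear kinase of granule cells, was at 511 to 888 CPM (median 564) (1.92), whereas Camk2a, the kinase of forebrain synapses, was at 109 to 219 CPM (median 138) against means of 3202 CPM in cortex and 1783 CPM in striatum (log2 fold change -2.87, SE 0.20, FDR 6.7e-33).

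The listed potassium and pacemaker channel genes, a selection of these families, were all measured, and 18 of 50 were higher and 27 lower (median -0.462). Over all genes 35.2% were higher, about the share of this list, and 37.9% were lower. Against striatum 22 were higher and 23 lower (median -0.231). Kcnc1, a Kv3 channel gene of fast-firing neurons, was at 815 to 1231 CPM (median 913) and rose by 1.62 on the log2 scale. Kcnc2, the Kv3 gene of forebrain interneurons, was at 7.49 to 45 CPM (median 29.8) and fell by 2.12. Kcng4, a silent subunit, had the largest rise of the list (119 to 188 CPM, log2 fold change 3.75, SE 0.42), with 70.9 CPM on average in brainstem and only 4.66 and 10.1 CPM in cortex and striatum. Leak channels Kcnk1, Kcnk3 and Kcnk10 and the inward rectifier Kcnj12 were higher in all 7 cerebella than in any other library (1.01, 1.96, 2.23 and 2.28). The M-current genes Kcnq3 and Kcnq5, which limit repetitive firing, were below all other libraries (-1.99 and -3.62), and Kcnj4, an inward rectifier of forebrain neurons, had the lowest value of the list (-4.61), although its level in brainstem (0.213 to 3.73 CPM) overlapped with that in cerebellum (0.295 to 1.54 CPM).

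Among the genes that stood farthest below the nearest other region were Ecel1, Kcng1, Cartpt, Chat, Ptprv, Pdyn, Npy2r, Lamp5 and Cpne7. Cerebellum was below its own mouse's other libraries in 7 of 7 mice for 8 of these 9 and in 6 for Chat. Ecel1 (chromosome 1, 87142874 to 87157085), a neuronal endopeptidase, was at 0.443 to 4.71 CPM (median 2.7) in cerebellum and at 16.9 to 67.8, 8.39 to 103 and 45.3 to 131 CPM in brainstem, cortex and striatum (log2 fold change -4.76, SE 0.44, FDR 1.1e-14). Kcng1, a silent potassium channel subunit, was at 0.0369 to 1.07 CPM (median 0.7) (log2 fold change -4.88, SE 0.47, FDR 8e-14). Cartpt, the precursor of a neuropeptide, was at 0 to 2.58 CPM (median 0.42) in cerebellum and overlapped with other regions (-4.50). Npy2r was at 0.179 to 1.4 CPM (median 0.665) and Lamp5, a membrane protein of cortical neurons, at 1.73 to 18.8 CPM (median 5.08), and both stayed below all other libraries (-4.28 and -4.12).

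Several of these low values differed between cerebella in the same direction as Slc17a6. Ecel1 was at 2.7, 4.71, 2.97 and 4.55 CPM in the 4 cerebella with more Slc17a6 and at 0.587, 0.531 and 0.443 CPM in the other 3. Cpne7, a calcium-dependent membrane-binding protein, was at 3.36 to 5.63 CPM in the first and 0.221 to 0.536 CPM in the second. Chat, the enzyme of acetylcholine synthesis, was at 1.46, 1.66, 0.437 and 4.67 CPM against 0, 0.0549 and 0 CPM. Fitted without those 4 libraries, the log2 fold changes of Ecel1, Cpne7 and Chat were -6.65, -6.93 and -9.65, against -4.76, -4.33 and -4.39 with them. For Kcng1, Pdyn and Cartpt they were -7.62, -8.02 and -7.22, against -4.88, -5.50 and -4.50. Of the 138 genes named with a fold change, 34 moved by over 1.5-fold when those 4 libraries were left out, and 31 of the 34 were lower in cerebellum and became lower still. The part of neighbouring tissue in these values was not tested, and with counts this near 0 the size of a fold change depends on the fit.

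Among the largest falls from the mean of the other regions were those of Ddn, Lrrc10b, Ptprv and Pdyn. Ddn (chromosome 15, 98803782 to 98807925), a dendritic protein of forebrain neurons whose messenger is carried into dendrites, was at 0.351 to 5.14 CPM (median 1.98) in cerebellum, 3.92 to 17.8 CPM (median 6.37) in brainstem, 625 to 1807 CPM (median 1023) in cortex and 345 to 1374 CPM (median 931) in striatum (log2 fold change -6.26, SE 0.38, FDR 2.8e-28). Cerebellum and brainstem overlapped for Ddn, although cerebellum was lower than brainstem too (log2 fold change -1.74, FDR 0.00052). Lrrc10b, a leucine-rich repeat protein, and Ptprv, a receptor-type phosphatase, were at most 0.77 and 0.633 CPM in cerebellum and were at 48 to 252 and 31.3 to 112 CPM in striatum (-5.75 and -5.63). In brainstem they were at 0.699 to 1.68 and 0.639 to 8.86 CPM, and Lrrc10b overlapped with cerebellum there. Pdyn, the precursor of the dynorphin opioid peptides, was at 0.0738 to 1.93 CPM (median 1.41) in cerebellum and 57.7 to 167 CPM (median 104) in striatum (log2 fold change -5.50, SE 0.42, FDR 6.9e-20).

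Genes of striatal projection neurons were lower without exception among those measured, 17 of 17, with 12 lower than each other region (median -3.08), beside 37.9% and 20.2% of all genes. Against brainstem 12 were lower and 2 higher with a median of -0.942, while the medians against cortex and striatum were -3.52 and -4.7. Their remaining levels in cerebellum varied. Drd1, a dopamine receptor, and Adora2a, the adenosine receptor of indirect pathway neurons, were near 1 CPM (-5.39 and -4.09), whereas Pde10a, a cyclic nucleotide phosphodiesterase, Ppp1r1b, the DARPP-32 phosphatase inhibitor, and Gnal, a G protein alpha subunit, kept 106 to 147, 68.7 to 113 and 145 to 176 CPM (-1.38, -1.05 and -1.23). Pde10a and Ppp1r1b were higher in cerebellum than in brainstem (log2 fold changes 0.83 and 1.42, FDR 0.002 and 1.7e-07).

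Genes that most neurons share were lower in 10 of 15 cases and higher in 2 (median -0.53), beside 37.9% and 35.2% of all genes, the latter being Rbfox3, the NeuN splicing factor (0.90), and Stmn2, a growth-associated microtubule protein (0.89). The median of the shared neuronal genes was -0.535 against brainstem and -0.449 against cortex but -0.141 against striatum, where 7 were lower and 4 higher. Of 15 measured genes of cortical excitatory neurons 9 were lower and 2 higher (median -1.24), beside the same shares. Against brainstem 7 were lower and 3 higher, with a median of -0.444. Nrgn, the postsynaptic calmodulin-binding protein neurogranin, was at 3.77 to 72.5 CPM (median 27) in cerebellum and 297 to 1621 CPM (median 725) in cortex (log2 fold change -2.97, SE 0.47, FDR 1.5e-06). In brainstem it was at 18.4 to 230.1 CPM (median 26.5), which overlapped with cerebellum. The higher genes were Nptx1, a pentraxin that clusters AMPA receptors (538 to 837 CPM, log2 fold change 1.81), and Sla, a signalling adaptor (20.3 to 36 CPM, 2.11), and all 7 cerebella exceeded all other libraries for both.

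Receptors for monoamines, acetylcholine and opioids gave the most one-sided result among the 4 receptor lists. Of 26 measured genes 24 were lower, 1 was higher and 18 were lower than each region (median -1.76), beside 37.9%, 35.2% and 20.2% of all genes. Chrm1, the M1 muscarinic receptor, was at 0.591 to 2.81 CPM (median 1.38) in cerebellum and 115 to 263 CPM (median 186) in cortex (log2 fold change -4.96, SE 0.29, FDR 2.9e-35). Oprd1, the delta opioid receptor, was at 0.944 to 3.11 CPM (median 1.96) (log2 fold change -3.62, SE 0.22, FDR 2.1e-40) and Htr2a, a serotonin receptor of cortical pyramidal neurons, at 0.72 to 2.75 CPM (median 2.31) (log2 fold change -2.95, SE 0.22, FDR 1.1e-27), and both were below all 23 other libraries in all 7 cerebella. The higher gene was Chrnb2, the common beta subunit of neuronal nicotinic receptors, at 100.1 to 131 CPM (median 118) against means of 76.9 to 80.1 CPM elsewhere (log2 fold change 0.59, SE 0.10, FDR 1.4e-09). Another 20 listed receptors were not analysed here.

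Neuropeptide genes were lower in 12 of 16 measured cases and higher in 2 (median -1.6), beside 37.9% and 35.2% of all genes. Sst, somatostatin, ran from 0.443 to 24.4 CPM across the cerebella (log2 fold change -3.36, SE 0.37, FDR 6.9e-12), Vgf, a secreted precursor induced by neurotrophins, was at 21.1 to 60 CPM (median 34.1) against means of 179.9 to 279.5 CPM elsewhere (log2 fold change -2.77, SE 0.12, FDR 4.5e-88), and Penk, the enkephalin precursor that Golgi cells also make, was at 78.8 to 93.9 CPM (median 89.5) (log2 fold change -1.98, SE 0.25, FDR 8.3e-12). Chgb, a granin of dense-core vesicles, was the exception that exceeded each region, at 753 to 1009 CPM (median 837) (log2 fold change 0.95, SE 0.08, FDR 7.2e-36), although its relative Chga was lower (-0.55). Activity-induced genes were lower in 11 of 19 cases and higher in 6 (median -1.11), beside the same shares. Without the 4 cerebella with more Slc17a6, 9 were lower and 3 higher. This came from cortex and striatum, with medians of -1.84 and -1.52 against those regions and 0.146 against brainstem, where 7 were higher and 3 lower. Egr3, an immediate early transcription factor, was at 0.439 to 2.56 CPM (median 1.33) in cerebellum, and 5.33, 149 and 149 CPM on average in brainstem, cortex and striatum (log2 fold change -5.20, SE 0.31, FDR 5.1e-32).

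Glial genes differed by cell type. All 15 microglia genes were lower than each other region, against 20.2% of all genes (median -1.19). Their summed level was 262 to 375 CPM in cerebellum and 469 to 939, 482 to 674 and 558 to 947 CPM in brainstem, cortex and striatum, with no overlap. Cx3cr1, the fractalkine receptor, was at 17.6 to 26 CPM (median 20.1) in cerebellum and at means of 53.2, 55.4 and 66.1 CPM elsewhere (log2 fold change -1.45, SE 0.07, FDR 3e-72), while the complement gene C1qa fell by less (-0.83, SE 0.11). In tissue of mixed cells, fewer cells of a type and less RNA per cell cannot be told apart, and the same holds for the neuronal lists.

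Oligodendrocyte precursor genes were lower in 11 of 12 cases and lower than each region in 7 (median -1.24), beside 37.9% and 20.2% of all genes. Pdgfra, the growth factor receptor of these cells, was at 24 to 35.1 CPM (median 28.5) against means of 67 to 76.1 CPM elsewhere (log2 fold change -1.30, SE 0.09, FDR 5.9e-37). Genes of mature oligodendrocytes were lower than the mean of the regions in 18 of 20 cases (median -0.896), beside 37.9% of all genes, but this depended on the region compared. All 20 were lower than in brainstem (median -1.72) and 17 lower than in striatum (-1.02), whereas against cortex 4 were higher and 2 lower (0.0983). Over all genes 37.4% were lower than in brainstem, 34.7% lower than in striatum, and 33.5% higher and 34.9% lower than in cortex. Mbp, a major myelin protein, was at 1750.0 to 2882 CPM (median 2488) in cerebellum and at 8754, 2113 and 5010.1 CPM on average in brainstem, cortex and striatum. Without the 4 cerebella with more Slc17a6, the median of this list was -1.39.

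Astrocyte genes were higher in 8 of 18 cases and lower in 4 (median 0.245), beside 35.2% and 37.9% of all genes. With the other 23 libraries as 1 group 4 were higher and the median was 0.0218. Against brainstem 9 were lower and 2 higher, while against cortex and striatum 11 were higher and 3 lower in each. Aqp4, the water channel of astrocyte endfeet, was at 358 ± 16.1 CPM in cerebellum, 465 ± 114 in brainstem, 135 ± 31.2 in cortex and 143 ± 63.2 in striatum. Gfap, the intermediate filament, was called lower (-0.65, but not past the test without mouse 7267059, at -0.472), with 1060.1 CPM on average in brainstem and 186 to 241 CPM in cortex and striatum against 201 CPM in cerebellum. Of 15 endothelial genes 0 were higher and 4 lower, both under the shares of all genes (35.2% and 37.9%), and with no replicate block for the mouse 2 were lower. Their median of -0.042 had no stable sign, being 0.0318 under library totals, 0.017 with no block, 0.0152 by limma-voom and 0.00574 without mouse 7267059. The clear exception was Mfsd2a, a lipid transporter of the blood-brain barrier, which was at 7.44 to 10.2 CPM (median 8.67) and below all other libraries (log2 fold change -1.14, SE 0.09, FDR 6.1e-30).

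Markers of tissue next to the dissected regions gave unstable results. Choroid plexus genes were 1 higher and 1 lower of 5 (median 0.472, and 2 higher with no replicate block for the mouse), beside 35.2% and 37.9% of all genes. Their summed level was 147 to 3326 CPM in cerebellum and 376 to 707, 233 to 1834 and 281 to 1278 CPM in brainstem, cortex and striatum. In brainstem Ttr was at 2.94 to 13.7 CPM, so other genes of the list made up most of the sum there. Ttr was called higher (log2 fold change 3.68, SE 0.80, FDR 0.001) but fell to 1.2 (FDR 0.32) without the cerebella of mice 9083371 and 9083373, and the median of the list then was -0.558. Genes of the thalamus were 3 higher and 3 lower of 11 (median 0.46), under the 35.2% and 37.9% of all genes, and without the 4 cerebella with more Slc17a6 the median was -0.834. Without mouse 9082857 the median of the thalamus list was 0.000247. Genes of brainstem neurons were all lower than in brainstem (7 of 7, median -2.36), and against the mean of the regions only Chat and Slc5a7, the choline transporter, were called, both lower.

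Genes of inherited ataxias in people, mostly spinocerebellar ataxias, were compared because ataxias strike the cerebellum. Of 30 measured genes 17 were higher and 10 lower in cerebellum (median 0.417), and 14 were higher than each region. The shares over all genes were 35.2%, 37.9% and 20.9%. Under library totals without TMM, 6 rather than 10 were lower. Among those higher by most were Car8, a gene of a recessive ataxia outside the numbered series (7.13), and Itpr1 (2.93). Tbp, the TATA-binding protein that every cell uses, was at 36.4 ± 1.98 CPM and above all other libraries as well (0.60, SE 0.04). Ppp2r2b, a phosphatase regulatory subunit, was lower in all 7 cerebella than in any other library (-1.24, SE 0.08). Pdyn, described above, is also on this list and fell by far more (-5.50, SE 0.42), again with no overlap. Atxn3 (chromosome 12, 101918901 to 101959121), the deubiquitinase gene of SCA3 itself, was at 29.6 to 38.5 CPM (median 34) in cerebellum, 40.4 to 48.2 CPM in brainstem, 40.7 to 47.1 CPM in cortex and 40.1 to 53.7 CPM in striatum (log2 fold change -0.37, SE 0.06, FDR 2.2e-10). Its cerebellar values were below those of all 23 other libraries.

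The genes that varied most among the 7 cerebella were, with a mean of at least 10 CPM there, Ttr, AW551984, 1500004A13Rik, Crym and Nptxr. AW551984, a gene with von Willebrand factor domains, was at 25.6, 23.3, 20.8 and 16.4 CPM in the 4 cerebella with more Slc17a6 and at 2.4, 0.787 and 0.314 CPM in the other 3. Crym, the thyroid hormone-binding protein mu-crystallin, was at 13 to 22.4 CPM in 6 cerebella and at 0.166 CPM in that of mouse 9083372, whose brainstem, cortex and striatum had 0.678, 57.4 and 140.4 CPM.

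Some genes differed strongly between mice in all their regions or in several. 1500004A13Rik, a long noncoding RNA, was at 0.437 and 0.42 CPM in the cerebella of mice 9083372 and 9083373, at 27.2 CPM in that of mouse 9082857 and at 14.1 to 15.4 CPM in the other 4. Each mouse had nearly the same level in its other regions, with 0.317 to 0.478 CPM in all libraries of the first 2 mice. The cerebellar contrast of this gene was near 0 (-0.02, FDR 0.76). Nptxr, the receptor of neuronal pentraxins, was at 0.275 and 1.43 CPM in the cerebella of mice 7267055 and 7267059 and at 12.7 to 20.9 CPM in the other 5. It was also at or below 0.619 CPM in every other library of those 2 mice. In mouse 7267058, which has no cerebellum library, Nptxr was near 0 in brainstem and striatum (0.0471 and 0.0583 CPM) but at 25.0 CPM in cortex. Exons of Nptxr share 890 bases with Npcd on the same strand.

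**Figure D4:**
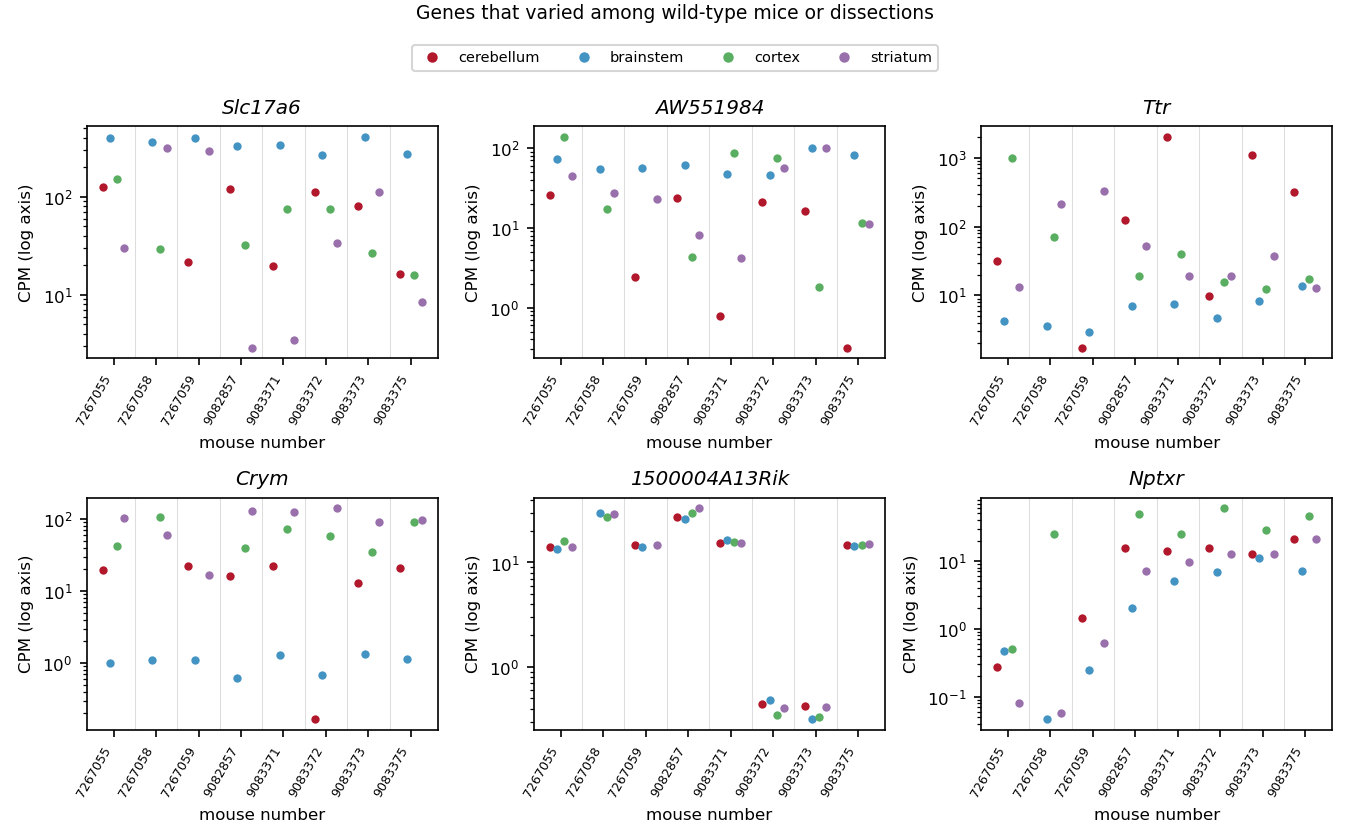
CPM (log axis) of 6 genes by mouse number, with 1 point for each wild-type library coloured by region. Slc17a6, AW551984, Ttr and Crym differ between cerebella, while 1500004A13Rik has the same level in all regions of a mouse, near 0.4, near 15 or near 30 CPM.

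The same contrast was fitted in SCA3 mice, whose libraries are all different from those above. There 4551 genes (36.8%) were higher in cerebellum and 4696 (38.0%) lower. Of the genes at least 2-fold higher in wild-type cerebellum 619 of 620 were also called higher in SCA3 mice, and of those at least 2-fold lower 1103 of 1113 were called lower. Log2 fold changes correlated with r = 0.988 across the 12372 genes, which are not independent replicates and share the 2 genotypes' common dissection and counting. The cerebellar difference depended on genotype for a single gene of 12372 (0.00808%), and 256 genes had an unadjusted p under 0.05.

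**Figure D5:**
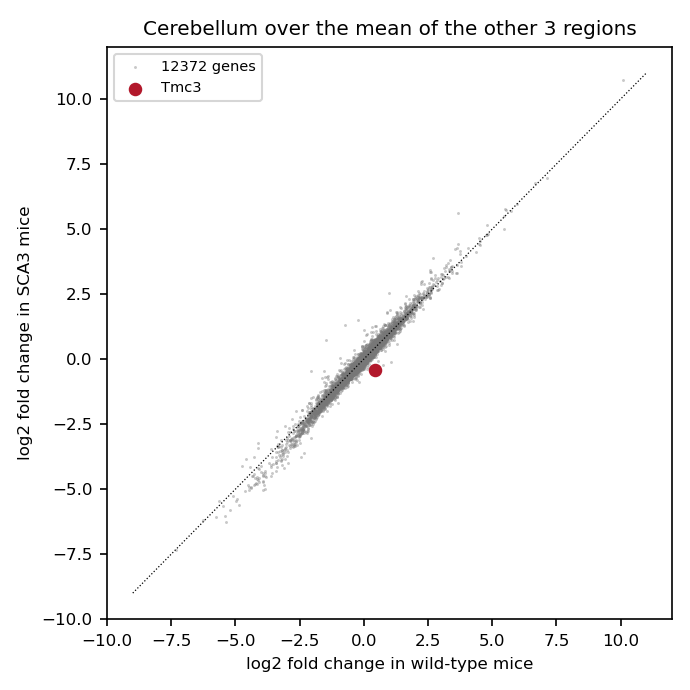
Log2 fold change of cerebellum over the mean of the other 3 regions in wild-type mice (x axis) and SCA3 mice (y axis), with 1 point per gene and the line of equality dotted. Tmc3 is the gene whose difference between genotypes passed the test.

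That gene was Tmc3 (chromosome 7, 83584904 to 83626852), a transmembrane channel-like protein. In wild-type mice it was at 4.86 to 7.83 CPM in cerebellum, 4.86 to 7.57 in brainstem, 2.87 to 4.8 in cortex and 4.53 to 6.83 in striatum, so that cerebellum was slightly higher than the other regions (log2 fold change 0.43), and in SCA3 mice cerebellum was lower than the other regions (-0.44). By library totals without TMM, Tmc3 was at 8.26 to 11 CPM in SCA3 cerebellum and 5.1 to 8 CPM in wild-type cerebellum. SCA3 brainstem, cortex and striatum had 12.2 to 18.8, 4.88 to 10.2 and 12.7 to 15.2 CPM on this scale. The level in cerebellum was thus higher in SCA3 mice too, and the change of sign came from larger rises in the other regions. The difference between genotypes was -0.87 (SE 0.14, FDR 3.7e-06), and 3961 of the 9027 exonic bases of Tmc3 overlap with Gm16638 on the opposite strand, so that reads within the shared bases cannot be told apart.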

How the data were processed

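Poly(A) RNA from 30 wild-type brain samples was sequenced as paired 125-base reads without strand information. As the study's methods and the submitters' processing notes state, reads were trimmed with cutadapt 1.10, aligned to GRCm38 (mm10) with STAR 2.3.0e and counted per RefSeq gene with HTSeq 0.6.1. The authors deposited whole-number counts per gene and sample, after excluding genes under a mean of 4 CPM (counts relative to the library total). Whether a mean was arithmetic or geometric was not given in the sources used here.

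Counts were fitted with edgeR 4.0.16 (R 4.3.3), TMM scaling, tagwise dispersions and a likelihood ratio test, with region means and the mouse as a block, over the 30 wild-type libraries. Cerebellum was compared with the mean of the 3 other region means and with each region, and the Benjamini-Hochberg false discovery rate (FDR) was taken over the 12372 genes of the table (called at FDR below 0.05). The same fit over all 53 libraries gave the SCA3 contrast and its difference by genotype. CPM values use TMM-adjusted totals. Each mouse number marks 1 animal, and samples of a mouse deviated together from their region means by a mean r of 0.107 to 0.204 over the 6 pairs of regions, with single mice down to -0.39. Mice are biological replicates. The script was tested on simulated data.

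Genes named were the 10 higher and 10 lower with the largest gap to the nearest region, the 5 higher and 5 lower with the largest fold change, the 5 that varied most among cerebella at a mean of at least 10 CPM, genes called for genotype, Atxn3, and members of 27 gene lists. Some genes that these rules select are not reported here. The comparison, the lists and the genes were chosen with earlier results of these data known. Alternatives were no block, edgeR's quasi-likelihood test, DESeq2 1.42.0, limma-voom (limma 3.58.1), other scalings and filters, RIN settings, the other 23 libraries as 1 group, and leaving out each mouse. Leaving out libraries with signs of neighbouring tissue was chosen after seeing the data. Gene positions come from RefSeq, in which 12347 genes (99.8%) were found by current or older symbol. Exon lengths and overlaps come from GENCODE vM21.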

Additional observations from a re-analysis of the deposited data

Results flagged for a closer look

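In cerebellum, 8 of the 138 genes named had 1 library farther from the other 6 than the critical value of Dixon's test at 95% allows. Chance gives such a result in about 5% of groups. Several of these genes are highest in the cerebellum of mouse 9083373. Chat was at 4.67 CPM there and at 1.66 CPM in the next library, Slc5a7 at 17.4 and 4.99 CPM, and Lamp5 at 18.8 and 8.53 CPM. That cerebellum was also among those with more Slc17a6 and Ttr, and the part of neighbouring tissue was not tested.

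In the cerebellum of mouse 9083371, Aldoc was at 2077.7 CPM with the next library at 1690.1 CPM, and Ppp1r1b was at 112.7 CPM with the next at 87.1 CPM. Neb was at 79.9 CPM in the cerebellum of mouse 7267059, with the next library at 55.7 CPM. Gfap was lowest in mouse 9083375, at 144.7 CPM, with the next library at 193.7 CPM. Crym was lowest in mouse 9083372, at 0.166 CPM, with the next library at 13 CPM. By library totals without TMM, Crym was also at 0.257 and 0.0687 CPM in the cerebella of SCA3 mice 7267054 and 7267056. The remaining SCA3 cerebella had 14.8 to 31.8 CPM.

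The cerebellar difference of Tmc3 depended on genotype, by -0.87 on the log2 scale between SCA3 and wild-type mice (FDR 3.67e-06 by the likelihood ratio test of edgeR). It was called by the fit without the mouse as a block (FDR 0.000169) and by the quasi-likelihood test (FDR 0.0018).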

How the results depend on the processing

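Under 24 alternatives, the counts of genes higher and lower in cerebellum stayed within 1.5 times of those given. They ran from 3488 to 5170 and from 3824 to 4842, and from 4077 to 4379 and from 4252 to 4706 when 1 mouse was left out. Fitted with no replicate block for the mouse, 4212 genes were higher and 4587 lower, and among the counts of genes higher or lower, over all genes and by list, those of endothelial genes lower (from 4 to 2) and choroid plexus genes higher (from 1 to 2) were the ones that moved by over 1.5 times. With the other 23 libraries as 1 group, the higher genes fell from 5 to 3 for cerebellar interneurons, from 7 to 4 for cerebellins, from 8 to 4 for astrocytes and from 6 to 3 for activity-induced genes. The median of endothelial genes was also positive in mice with all 4 regions (0.00585) and without mouse 9083375 (0.00921). Genes higher made up 48.2% of calls with TMM and 57.0% with library totals alone, which moved the median of all genes from -0.0154 to 0.057.

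Of 3299 values of named genes under the alternatives, 3263 kept their direction and side of the threshold and 15 turned sign. Those 15 concern genes near 0 or genes that vary by library. For 1500004A13Rik the value was 0.00086 by the quasi-likelihood test, 0.0582 by limma-voom, 0.0471 with library totals and 0.00937 without the cerebella with more Slc17a6. For Grin1 it was 0.00922 with library totals, 0.172 without the cerebella with more Slc17a6 and 0.000208 without those with most Ttr. For Nptxr it was -0.0393 with the other 23 libraries as 1 group and -0.287 with RIN as a covariate. For Crym it was 0.342 without the cerebella with more Slc17a6, and for Tcf7l2 -0.834 without the latter. With 1 mouse left out, the values ran from -0.034 to 0.00283 for 1500004A13Rik (positive without 9082857), from -0.132 to 0.00303 for Grin1 (without 9083373), from -0.0173 to 0.173 for Nptxr (negative without 7267059) and from -0.392 to 0.159 for Crym (positive without 9083372). Those of Tcf7l2 ran from 0.000247 to 0.88. Calls of Ttr by limma-voom (2.11), of AW551984 without the libraries with more Tcf7l2 (-1.85) and of Ryr1, Aqp4, Gfap and Pcp4 with the other 23 libraries as 1 group (1.25, 0.579, -1.01 and 0.391) were lost. The causes were not tested. Values under 1 CPM rest on few reads, and no alternative with fewer reads was run.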
